A study of Mus musculus with 11 samples.

Results

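The genes of cholesterol synthesis and of its control by the sterol regulatory element-binding proteins (SREBPs) were examined in sympathetic ganglia of old mice. The list held 27 genes, and each was found by its symbol among the array probe sets that the platform annotation assigns to 1 gene only. In all, 24 of the 27 had such a probe set, out of 12393 genes with one, and they were represented by 49 probe sets. Acat2, Insig1 and Mbtps2 had none in the annotation used and were not analysed here. Ganglia were taken by laser capture from frozen tissue of male C57BL mice that were 78 weeks old and ate normal chow. Total RNA was hybridised to 11 Affymetrix arrays, 6 from apoE-/- mice and 5 from wild-type mice. The apoE-/- mice lack apolipoprotein E, a carrier of cholesterol and other lipids in plasma and tissue, and such mice have high plasma cholesterol and atherosclerosis. Nothing in the labels says which animal gave which array, so the p-values measure the spread between these arrays, which may be partly technical.

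Cells make cholesterol from acetyl units by way of mevalonate, isoprenoid diphosphates, squalene and lanosterol, and branches of the route feed protein prenylation, ubiquinone and dolichol. The membrane-bound precursors of SREBP-1 (gene Srebf1) and SREBP-2 (Srebf2) sit in the endoplasmic reticulum with the escort protein SCAP. When membrane cholesterol is low, SCAP carries them to the Golgi, where the proteases encoded by Mbtps1 and Mbtps2 release the active factor, and when it is high, INSIG proteins hold the complex back. In the central nervous system, neurons and glia depend largely on their own sterol synthesis and on sterol passed between them on apolipoprotein E particles. How far this holds for sympathetic ganglia was not tested here.

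Promoter sequences of 4 members are shown as description, and the genes were picked for the reasons given next. No test related a motif to the expression differences. Of the 23 member genes with a window, Hmgcs1 alone matched the SRE form searched (the sterol regulatory element is the DNA site that SREBPs bind). Msmo1 had the smallest p of the enzymes, Sc5d varied with Msmo1 from array to array, and Scap was the member called different between the groups. Each is the 250 bases before a RefSeq start in GRCm38.p6, 5′ to 3′ on the gene's strand. Capitals mark matches, on either strand, to TCACNCCAC (an SRE form), CCAAT (the NF-Y box) and GGGCGG (the SP1 box). No matches overlapped in these 4 windows.
Hmgcs1: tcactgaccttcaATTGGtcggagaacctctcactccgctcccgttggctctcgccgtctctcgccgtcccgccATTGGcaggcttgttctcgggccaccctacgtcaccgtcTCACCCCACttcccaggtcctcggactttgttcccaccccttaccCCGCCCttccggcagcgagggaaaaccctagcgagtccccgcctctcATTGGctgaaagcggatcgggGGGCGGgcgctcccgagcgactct
Msmo1: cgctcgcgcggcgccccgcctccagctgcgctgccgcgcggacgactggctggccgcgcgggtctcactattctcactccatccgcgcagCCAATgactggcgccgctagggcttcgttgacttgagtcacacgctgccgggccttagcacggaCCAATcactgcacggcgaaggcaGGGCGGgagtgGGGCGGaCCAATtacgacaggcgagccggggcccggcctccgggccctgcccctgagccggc
Sc5d: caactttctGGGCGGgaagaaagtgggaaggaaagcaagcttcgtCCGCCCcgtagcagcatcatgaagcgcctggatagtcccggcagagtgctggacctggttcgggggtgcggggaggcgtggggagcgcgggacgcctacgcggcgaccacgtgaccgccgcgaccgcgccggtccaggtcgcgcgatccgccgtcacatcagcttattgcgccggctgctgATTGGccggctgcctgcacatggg
Scap: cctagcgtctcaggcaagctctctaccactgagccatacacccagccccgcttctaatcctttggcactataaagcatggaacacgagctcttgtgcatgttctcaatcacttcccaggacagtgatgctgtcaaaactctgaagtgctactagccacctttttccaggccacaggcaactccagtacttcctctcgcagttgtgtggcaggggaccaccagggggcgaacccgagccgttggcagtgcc

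The Hmgcs1 window (chr13:119690101-119690350, plus strand) held 1 match to TCACNCCAC, 3 to CCAAT and 2 to GGGCGG, with the SRE match starting 137 bases before the start site. The Msmo1 window (chr8:64733579-64733828, minus strand) held 3 CCAAT and 2 GGGCGG matches. The Sc5d window (chr9:42264301-42264550, minus strand) held 1 CCAAT and 2 GGGCGG matches. The Scap window (chr9:110333038-110333287, plus strand) held no match to these letters, and the window of the other RefSeq start of Scap held 1 GGGCGG.

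RefSeq windows were found for 23 of the 27 genes, and none were used for Fdps, Fdft1, Sqle and Stard4. CCAAT was present before at least 1 start of 19 of these 23 genes (82.6%), against 37.5% of 27025 genes. By window, it was in 20 of 31 member windows, against 33.8% of all 32851 windows. These backgrounds hold every gene with a window, whether or not the ganglia express it. GGGCGG was present in 20 of 23 genes (87.0%), against 35.4% of all genes, and in 23 of 31 member windows, against 32.7% of all windows. TCACNCCAC was in 1.05% of all windows and in those of 1 member gene, Hmgcs1. The genes without CCAAT were Acat2, Scap, Mbtps1 and Mbtps2, and those without GGGCGG were Pmvk, Ggps1 and Mbtps2. A match describes the letters in the window and is not a measured binding site.

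Signals were deposited on a linear scale, with array medians between 163 and 188.6. The Apoe signal was 143 ± 84.6 (SD, n = 6) in apoE-/- arrays and 15155 ± 3020 (SD, n = 5) in wild-type arrays, and no apoE-/- array reached the wild-type range (log2 difference −6.75, SE 0.44, limma adjusted p = 1.88e-06; exact two-sided permutation p = 0.0022, the smallest that 462 splits can give). Of 13 noradrenergic neuron markers none was at 0 in every array. The same held for every gene list used below, so it does not show that a cell type was present. The neuron marker of highest signal, Npy, stood at 21013 ± 10553 (SD, n = 6) in apoE-/- and 24266 ± 6281 (SD, n = 5) in wild-type arrays. The arrays were cut into 3 levels of the spiked hybridisation controls, at the largest gaps in mean log2 control signal. The number of levels was set and not found. The cuts lay between 10.75 and 11.45 and between 11.75 and 12.16, and the high level itself ran from 12.16 to 12.93. The low level held apoE-/- replicates 2, 3 and 4 and no wild-type array. The middle level held apoE-/- replicate 5 and wild-type replicates 3, 4 and 5, and the high level held apoE-/- replicates 1 and 6 and wild-type replicates 1 and 2. Results are therefore also given with the level as a block and within the levels that hold both groups.

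Of the 24 tested members, Scap was lower in apoE-/- ganglia and no member was higher at a limma adjusted p under 0.05. Over all 8433 genes tested, 1.93% were called in either direction, 0.676% lower and 1.26% higher. The 18 enzymes divided evenly, with 9 negative and 9 positive differences and a median of −0.00 on the log2 scale. Of the 5 tested regulators, 4 had negative differences, with a median of −0.31, and the contrast between enzymes and regulators was not tested. Differences were negative for 57.0% of all genes. Over all 24 members the median difference was −0.03, beside −0.04 for all genes, and the range was −0.57 for Scap to 0.38 for Msmo1. These differences are apoE-/- minus wild-type on log2(signal + 16) after quantile normalisation, a scale that understates changes of low signals. In bulk tissue, fewer cells of a type and less RNA per cell cannot be told apart.

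Unadjusted p-values were under 0.05 for 7 of 24 members (29.2%), 5 lower (Scap, Srebf2, Mbtps1, Mvd and Tm7sf2) and 2 higher (Msmo1 and Cyp51), beside 20.3% of all genes. The groups overlapped in normalised value for every member, while 2.96% of all genes had groups that did not overlap, 1.51% with apoE-/- lower. The typical size of a difference was 0.161 for members and 0.170 for all genes (medians of absolute values), and the median residual SD was 0.233 against 0.242. Of the 49 probe sets, 44 passed the filter on low values, and 1 of these 44 was called when every probe set was tested (1.43% of 12757). In 10 of the 14 members with at least 2 such probe sets, all of them lay on one side of 0.

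**Figure D1:**
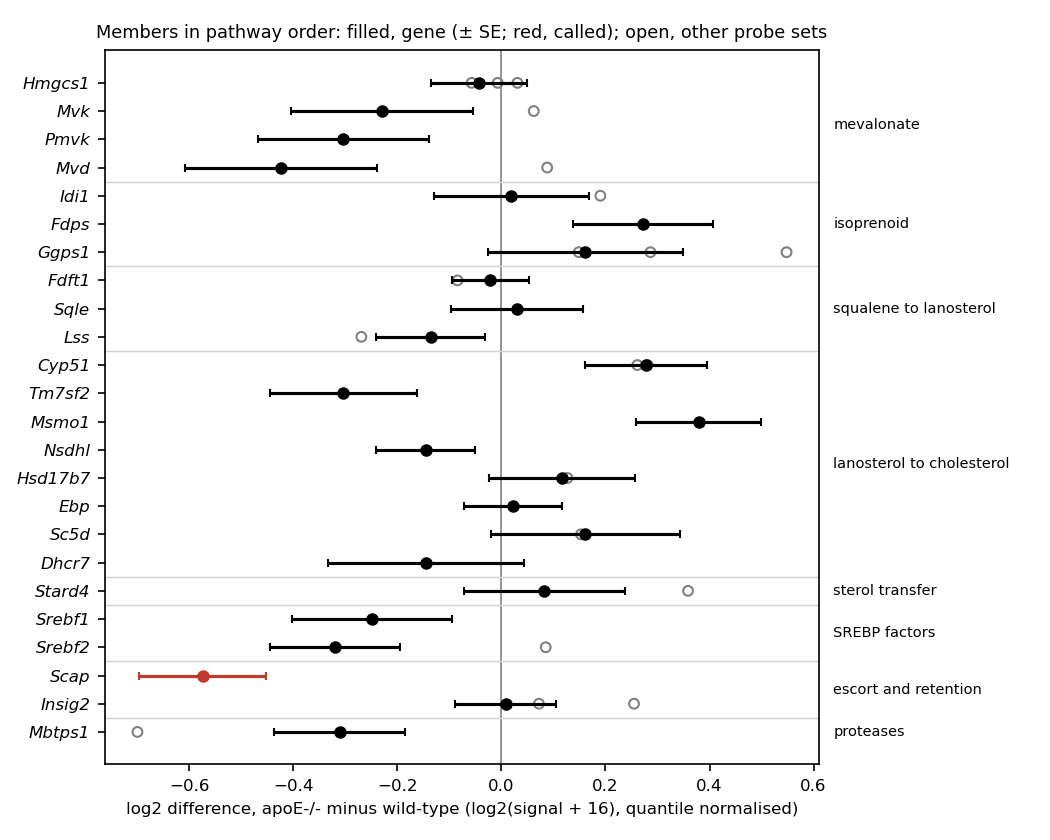
Log2 difference (apoE-/- minus wild-type, x axis) of the 24 tested members in pathway order, with the filled point for the probe set that stands for the gene, its SE as a bar, and open points for the other probe sets past the filter. Scap (red, −0.57) is the one called. The filled points of the 4 mevalonate genes lie left of 0 and those of the 3 isoprenoid genes right of 0. Hmgcs1, Mvk and Mvd each also have an open point right of 0.

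Scap encodes the sterol-sensing escort protein of the SREBPs. Its signal in apoE-/- arrays had a lowest value of 655.9, a median of 684.5 and a highest of 946.6. The wild-type arrays gave 1230.3, 1127.1, 1121.8, 890 and 1069.8 in replicates 1 to 5. Only apoE-/- replicate 5 lay above the lowest wild-type array, replicate 4. The group means were 738 ± 116 (SD, n = 6) and 1088 ± 125 (SD, n = 5), a log2 difference of −0.57 (SE 0.12, limma adjusted p = 0.0254). Scap was measured by only 1 single-gene probe set, so the difference could not be compared with that of another.

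The Scap difference was negative in all 27 alternative analyses, from −0.80 to −0.51, and its call was lost in 10 of them. A block on the control level gave −0.51 (adjusted p = 0.210), and the difference was −0.51 without the 3 low-level arrays (adjusted p = 0.247). Within the high level, with 2 arrays a group, the difference was −0.82, and within the middle level, with 1 apoE-/- array against 3, it was −0.10. Leaving out 1 array ended the call for 6 of the 11 arrays. The log2 differences were −0.55 without apoE-/- replicate 3 (adjusted p = 0.0662), −0.54 without replicate 4 (0.0604), and −0.53, −0.56, −0.57 and −0.58 without wild-type replicates 1, 2, 3 and 5 (0.0853, 0.0827, 0.0609 and 0.0636).

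**Figure D2:**
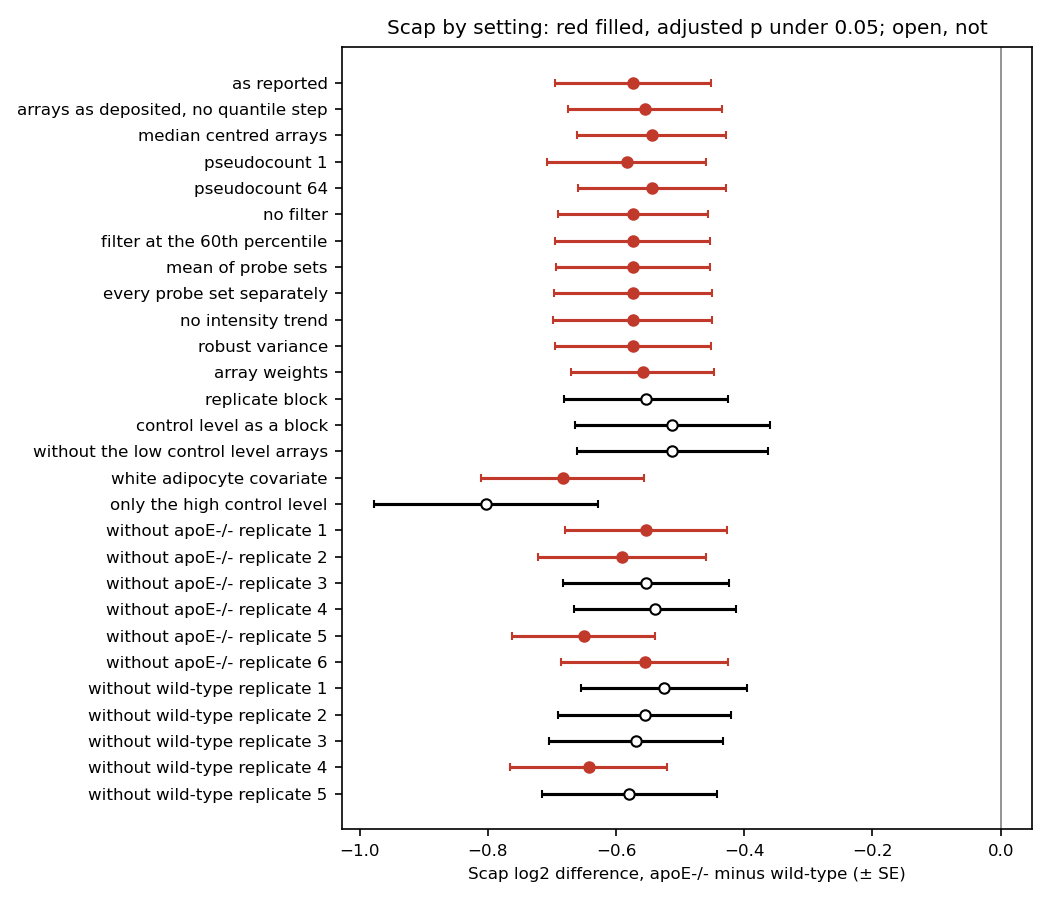
Scap log2 difference, apoE-/- minus wild-type (x axis, ± SE), as reported and under the 27 alternatives, with red filled points where the limma adjusted p was under 0.05. Every point lies left of 0, between −0.80 and −0.51, and the 10 open points mark the alternatives without a call.

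The factors escorted by SCAP had negative differences that did not pass the test. Srebf2, the main activator of cholesterol synthesis genes, had a lowest signal of 480.9, a median of 543.2 and a highest of 674.7 in apoE-/- arrays. The wild-type arrays gave 701.8, 802.2, 775.3, 550.8 and 681.9. Wild-type replicate 4 lay inside the apoE-/- range and the other wild-type arrays lay above it (log2 difference −0.32, SE 0.12, limma adjusted p = 0.178). A second Srebf2 probe set had a difference of 0.09, and the mean of both was −0.12. Within the high control level the first probe set differed by −0.44 and within the middle level by −0.00.

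Srebf1, whose SREBP-1c product drives fatty acid synthesis genes in many tissues, had signals from 1125.3 to 1984.3 in apoE-/- arrays with a median of 1309.2. Wild-type arrays gave 1728.3, 1434.1, 1823.7, 1198 and 1874.4. The groups overlapped throughout, and the highest value of all came from apoE-/- replicate 1 (log2 difference −0.25, SE 0.15, limma adjusted p = 0.369). Without that array the difference was −0.36 and was not called.

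Insig2, a retention protein of the endoplasmic reticulum, differed least among the regulators. Its apoE-/- signals had a lowest value of 995, a median of 1049.5 and a highest of 1223.1. Wild-type arrays gave 1150.2, 898.1, 1171.6, 1061.3 and 1033.1, and the groups interleaved (log2 difference 0.01, SE 0.10, limma adjusted p = 0.971). The other Insig2 probe sets gave 0.07 and 0.25, neither called.

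Mbtps1 encodes the protease that makes the first cut of the SREBPs in the Golgi. Its apoE-/- signals ran from 547.6 to 892.7 with a median of 676.5. Wild-type arrays gave 921, 859, 823.7, 757 and 886.8. The apoE-/- arrays that reached the wild-type range were replicates 1 and 5, with a group difference of −0.31 on the log2 scale (SE 0.13, limma adjusted p = 0.193). A lower-signal Mbtps1 probe set gave −0.70 (adjusted p = 0.206 over all probe sets), and the mean of the probe sets gave −0.51 (adjusted p = 0.0695). Within the high and middle control levels the first probe set differed by −0.18 and −0.10.

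**Figure D3:**
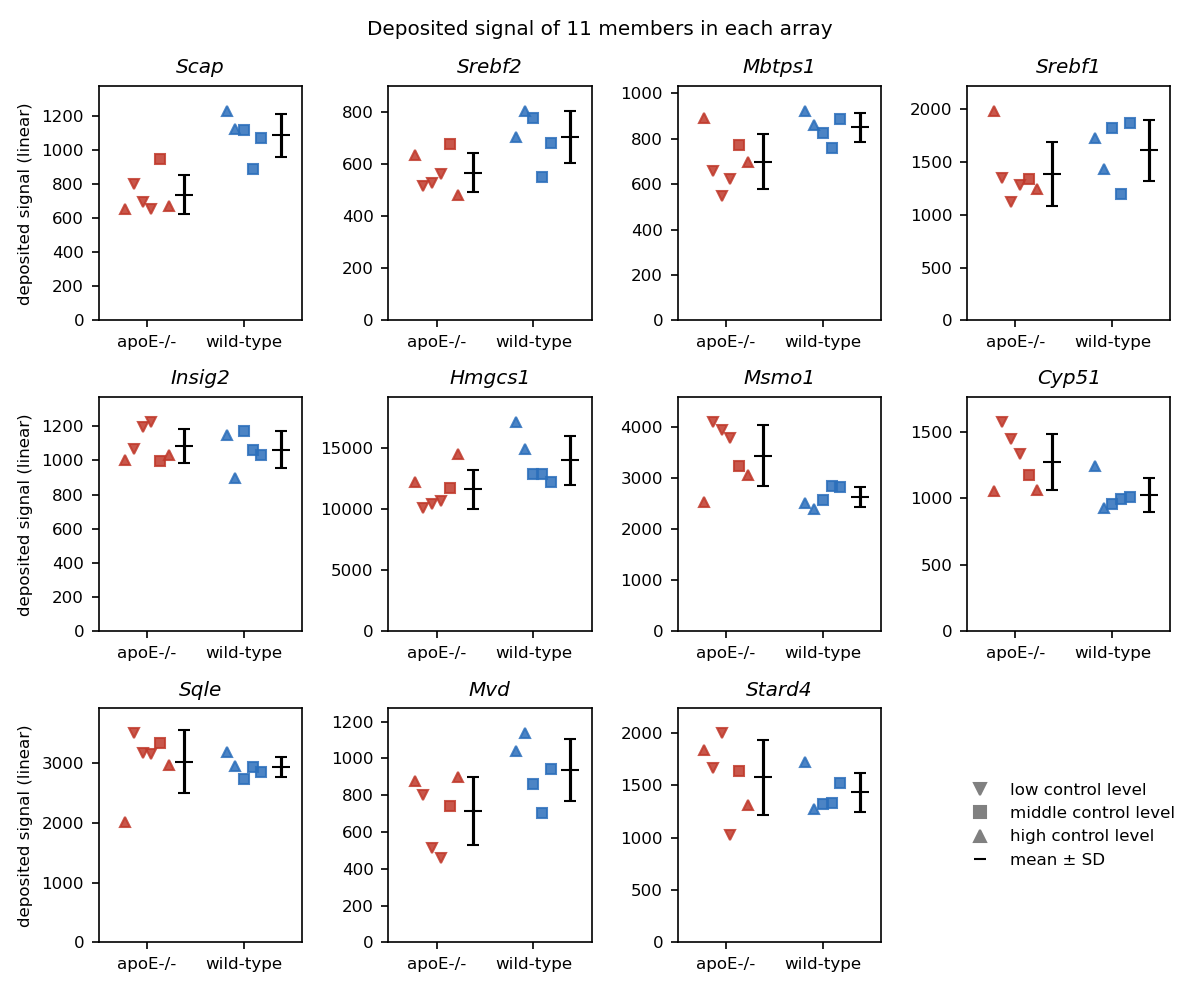
Deposited linear signal (y axes, each gene on its own scale from 0) of 11 members in every array, with marker shape for the hybridisation control level and bars for mean ± SD (n = 6 apoE-/- and n = 5 wild-type). For Scap only 1 red point lies above the lowest blue point, whereas for Insig2 and Srebf1 the colours interleave.

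The 4 tested enzymes that build and activate mevalonate all had negative differences in the probe set that stood for the gene, with a median of −0.27. None was called, and Hmgcs1, Mvk and Mvd each had another probe set with a positive difference. Hmgcs1, which joins acetoacetyl-CoA and acetyl-CoA into HMG-CoA, had apoE-/- signals with a lowest value of 10141, a median of 11231.7 and a highest of 14532.6. Wild-type arrays gave 17162.7, 14928.9, 12894.9, 12880.3 and 12280.8. The apoE-/- array inside the wild-type range was replicate 6. The mean signals were 11641 ± 1629 (SD, n = 6) and 14030 ± 2018 (SD, n = 5).

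For Hmgcs1 the size of the difference depended on the scaling. It was −0.04 after quantile normalisation (SE 0.09, limma adjusted p = 0.817), −0.27 on the arrays as deposited (adjusted p = 0.241) and −0.26 on median centred arrays (adjusted p = 0.248). None of these was called. The other 3 Hmgcs1 probe sets gave −0.06, −0.01 and 0.03 after quantile normalisation.

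Mvd, the decarboxylase that ends this stage with isopentenyl diphosphate, had a lowest apoE-/- signal of 459.8, a median of 771.4 and a highest of 897.6. Wild-type arrays gave 1038.3, 1137.5, 859.8, 701.8 and 942. The lowest arrays were apoE-/- replicates 3 and 4, both of the low control level (log2 difference −0.42, SE 0.18, limma adjusted p = 0.218). A second Mvd probe set gave 0.09, and the mean of both gave −0.17. The kinases Pmvk and Mvk, which phosphorylate mevalonate in turn, differed by −0.30 (adjusted p = 0.312) and −0.23 (adjusted p = 0.47), and a second Mvk probe set gave 0.06.

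The 3 enzymes that build isoprenoid diphosphates all had positive differences, with a median of 0.16, and none was called. Fdps, which makes farnesyl diphosphate, had signals of 3683.7 to 5808.8 in apoE-/- and 3177.9 to 4392.8 in wild-type arrays (log2 difference 0.27, adjusted p = 0.270). Ggps1, which makes the geranylgeranyl donor of prenylation, differed by 0.16 (adjusted p = 0.648), and its other probe sets gave 0.55, 0.29 and 0.15. The probe set at 0.55 had an unadjusted limma p of 0.0053 among all probe sets (adjusted p = 0.117). The isomerase Idi1 differed by 0.02 (adjusted p = 0.954), and this sign turned under several alternatives.

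From squalene to lanosterol the median was −0.02. Sqle, squalene epoxidase and a rate-controlling step, had a lowest apoE-/- signal of 2009.7, a median of 3166.2 and a highest of 3505. Wild-type arrays gave 3187.9, 2951.7, 2733.6, 2939.6 and 2853. Apart from apoE-/- replicate 1, which stood alone below all other arrays, the apoE-/- values lay between 2976.2 and 3505. The groups differed by 0.03 on the log2 scale (SE 0.13, limma adjusted p = 0.912), and it was 0.14 without replicate 1, also not called. Fdft1, squalene synthase, differed by −0.02 (adjusted p = 0.891), and lanosterol synthase Lss by −0.14 (adjusted p = 0.469), with −0.27 for its second probe set.

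The 8 enzymes from lanosterol to cholesterol had a median of 0.07, with 3 negative differences, and none was called. Msmo1, the oxidase that removes the C4 methyl groups, had the smallest p of the enzymes when 1 probe set stood for each gene. Its apoE-/- signals had a lowest value of 2539.2, a median of 3513 and a highest of 4099.9. Wild-type arrays gave 2508.8, 2394.2, 2574.4, 2849.4 and 2837.3. The apoE-/- arrays other than replicate 1 lay above all wild-type arrays (log2 difference 0.38, SE 0.12, limma adjusted p = 0.114). The difference reached 0.46 and was called when arrays were weighted by quality (adjusted p = 0.0223) and when apoE-/- replicate 1 was left out (adjusted p = 0.0245). The 3 low-level arrays were the highest for this gene, and within the high and middle levels the difference was 0.19 and 0.25.

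Cyp51, the lanosterol demethylase, had a lowest apoE-/- signal of 1056.7, a median of 1252.1 and a highest of 1572. Wild-type arrays gave 1244.5, 925.8, 956.8, 994.9 and 1008. Only wild-type replicate 1 reached into the apoE-/- range (log2 difference 0.28, SE 0.12, limma adjusted p = 0.205). The other Cyp51 probe sets gave 0.28 and 0.26. The 3 low-level apoE-/- arrays were again the highest, and the difference was −0.01 within the high level and 0.25 within the middle level.

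The other genes of this stage were further from the threshold. The sterol reductase Tm7sf2 differed by −0.30 (adjusted p = 0.245), Nsdhl, which acts with Msmo1 in C4 demethylation, by −0.15 (0.395), and the 3-ketosteroid reductase Hsd17b7 by 0.12 (0.661). The isomerase Ebp differed by 0.02 (adjusted p = 0.911) and the desaturase Sc5d by 0.16 (0.636). Dhcr7, the reductase of the last step of one branch and the only member on chromosome 7 beside Apoe, differed by −0.14 (0.689). Stard4, which carries cholesterol between membranes, had apoE-/- signals from 1021.8 to 1998 with a median of 1648.1. Wild-type arrays gave 1721.8, 1274.1, 1321.1, 1334.6 and 1519.6, inside that range (log2 difference 0.08, SE 0.15, limma adjusted p = 0.787), and a second Stard4 probe set gave 0.36 (adjusted p = 0.230 over all probe sets).

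Within the apoE-/- group, the hybridisation control level went with differences in some members and hardly in others. At the extremes, the 3 low-level arrays minus the other 3 gave 0.62 for Sc5d, 0.44 for Idi1 and 0.42 for Msmo1, and −0.59 for Pmvk, −0.55 for Mvd and −0.49 for Mvk. Ebp at −0.03, Fdps at 0.08 and Lss at 0.08 differed little. For 20 of 24 members (83.3%) this contrast within apoE-/- was larger in size than the difference between the genotypes, as it was for 60.2% of all genes. Scap was among the exceptions, with −0.11 within apoE-/- against −0.57 between the groups. The contrast within apoE-/- sets 3 arrays against 3 and the genotype difference 6 against 5, so the contrast is the less precise. A less precise contrast is more often the larger in size from spread alone. The median size of the contrast within apoE-/- was 0.252 for members and 0.229 for all genes. The sign of the fitted difference was the same within the high level for 15 of 24 members and within the middle level for 19. The arrays of these levels are part of the same fit, so some agreement in sign is built in. These counts are therefore no separate check, and the share over all genes was not determined. What part the control level has in the differences of single members was not tested.

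Among the enzymes, the median correlation between genes over the arrays was positive, while some pairs varied in opposite directions. After removal of group means, the median correlation between pairs of the 18 enzymes over the 11 arrays was 0.27, that of the 5 regulators 0.30, and that of all genes tested 0.01. With the means of each group and control level removed, these were 0.48, 0.33 and 0.01. ApoE-/- replicate 5 was alone in its group and level, so this removal left it no spread. Values with level means removed therefore rest on less information, and whether they differ from the first was not tested. Over all 24 members the medians were 0.14 and 0.29. Of the 276 member pairs, Msmo1 and Sc5d had the highest correlation after removal of group means (r 0.95, Spearman's rho 0.93), with r of 0.81 once the level means were also removed. The lowest was that of Sc5d and Mbtps1 (r −0.84, rho −0.75), with r of −0.60 once the level means were also removed. Between enzymes, the lowest was that of Pmvk and Sc5d (r −0.65, rho −0.60), with r of 0.31 once the level means were also removed. Mvk and Cyp51 had r of −0.63 and −0.39 in the same order. For Sqle and Sc5d, r was 0.76 after removal of group means but rho was 0.27. These are descriptions without a test, since all genes of an array share its RNA, labelling and hybridisation. The mean of the enzymes ran from −0.22 in apoE-/- replicate 1 to 0.18 in apoE-/- replicate 2, and the wild-type arrays lay between −0.05 and 0.04. Regulator means lay between −0.28 and 0.07 in apoE-/- arrays and between −0.08 and 0.27 in wild-type arrays. ApoE-/- replicate 1, lowest for Sqle, Idi1, Hsd17b7 and Sc5d, was highest for Srebf1.

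**Figure D4:**
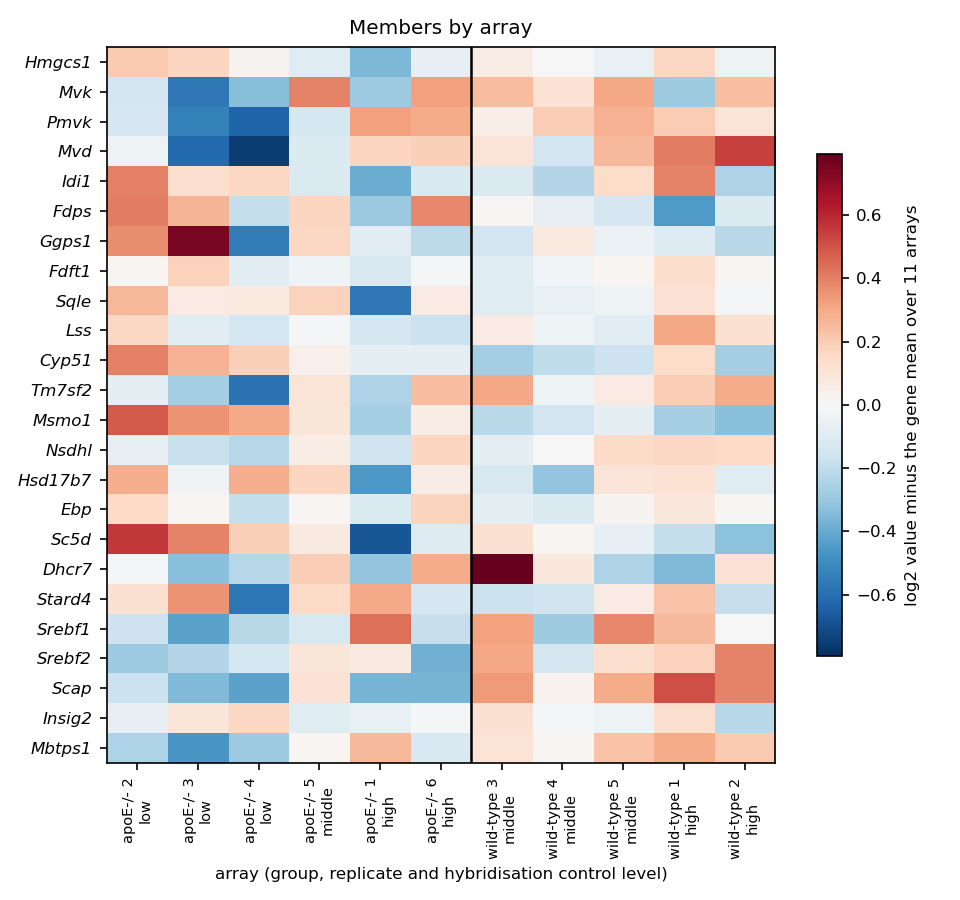
Normalised log2 value of each member minus its mean over the 11 arrays (colour, red higher and blue lower), with members as rows in pathway order and arrays as columns by group and hybridisation control level. ApoE-/- replicate 1 is blue for Sqle, Hsd17b7 and Sc5d and red for Srebf1, and Scap is blue in every apoE-/- array except replicate 5.

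Genes of neighbouring processes were taken from lists of their own. Of 6 tested genes of sterol synthesis outside the list, 1 was called higher and none lower, with a median of −0.05. It was Lbr, a nuclear membrane protein with sterol reductase activity, the same reaction as Tm7sf2. Lbr signals ran from 435.1 to 582.9 in apoE-/- arrays and from 263.4 to 370.8 in wild-type arrays, with no overlap (log2 difference 0.59, SE 0.12, limma adjusted p = 0.0254). Tm7sf2, by contrast, stood at −0.30 and was not called; the difference between these differences was not tested. Cyb5r3, which supplies electrons to the sterol oxidases, differed by −0.26 (adjusted p = 0.153) and Tmem97 by 0.31 (0.635).

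The Lbr call was kept in 17 of 27 alternatives and its difference was positive in all of them. A block on the control level gave 0.46 (adjusted p = 0.200). The call was lost without apoE-/- replicate 2, 3 or 4 or wild-type replicate 1, 2 or 3, where the difference ran from 0.52 to 0.60 and the adjusted p from 0.0585 to 0.0846. Macrophage markers moved with the groups in these arrays, with 10 of 15 called higher, a median of 0.82, and a summed signal of 12467.2 to 18128.5 in apoE-/- against 7317.1 to 9260.6 in wild-type arrays. None of those 15 markers was at 0 in every array, and their part in the Lbr difference was not tested.

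In the branches that use isoprenoids, 1 of 10 tested genes was called lower and none higher, with a median of 0.02. Fntb, the beta subunit of protein farnesyltransferase, had signals from 97.6 to 194.1 in apoE-/- and from 184.4 to 337.2 in wild-type arrays. Only wild-type replicate 4 lay inside the apoE-/- range (log2 difference −0.74, SE 0.18, limma adjusted p = 0.0498). The call lay at the threshold and was lost in 18 of 26 alternatives, also on arrays as deposited (−0.75, adjusted p = 0.0663) and with the mean of white adipocyte markers as a covariate (−0.77, adjusted p = 0.0794). Leaving out apoE-/- replicate 2, 3, 4 or 6 or wild-type replicate 1, 2, 3 or 5 ended it, at differences of −0.77 to −0.64 and adjusted p from 0.0523 to 0.139. Icmt, which methylates prenylated proteins, and Dhdds, a subunit of the dolichol synthase, differed by −0.38 (adjusted p = 0.118) and −0.46 (0.152).

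None of the 14 tested genes of SREBP transport and sterol-dependent protein turnover was called by limma, 5 had an unadjusted p under 0.05, and 9 had negative differences (median −0.11). Over all genes, 20.3% had such a p and 57.0% had negative differences. Sec24c, a COPII coat protein of the kind that loads SCAP into vesicles, differed by −0.32 (adjusted p = 0.125), Ufd1 by −0.33 (0.133) and the ubiquitin ligase Marchf6, which targets squalene epoxidase, by −0.24 (0.185). Of 7 tested SREBP partners none was called and none had an unadjusted p under 0.05 in the limma fit, with a median of −0.02. Pgrmc1 differed by 0.20 (adjusted p = 0.360), Nfyb, a subunit of the CCAAT-binding NF-Y, by 0.24 (0.399), and Crebbp by −0.16 (0.636).

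Genes of fatty acid synthesis, many of them SREBP-1 targets, lay mostly below wild-type without passing the test. Of 22 tested, 19 had negative differences (57.0% of all genes did) with a median of −0.38, none was called by limma, and 13 had an unadjusted p under 0.05, beside 20.3% of all genes. Acly, which makes cytosolic acetyl-CoA for both fatty acids and sterols, had a lowest apoE-/- signal of 5726.4, a median of 8002.1 and a highest of 9950.8. Wild-type arrays gave 11622.2, 11133.5, 9954.8, 9841 and 12017.3. ApoE-/- replicate 1 was the one array to reach the wild-type range (log2 difference −0.45, SE 0.12, limma adjusted p = 0.0655).

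Fasn, fatty acid synthase, had signals of 2731.2 to 7855.6 with a median of 3945.2 in apoE-/- arrays and of 5566.6 to 11960.5 in wild-type arrays (log2 difference −0.87, SE 0.25, limma adjusted p = 0.0838). The elongase Elovl6 differed by −0.46 (adjusted p = 0.120). Weighting arrays by quality called 6 of the 22 lower, and 1 was called lower without apoE-/- replicate 1, without apoE-/- replicate 2 or without wild-type replicate 4.

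Adipocyte markers lay lower beside this group of genes, also without passing the test. All 13 tested white adipocyte markers had negative differences, with a median of −0.67, and none was called by limma, with 4 at an unadjusted p under 0.05. The shares over all genes were 57.0% negative and 20.3% with such a p. Their summed signal was 7482.7 to 40301.9 in apoE-/- arrays and 18656.8 to 54150.6 in wild-type arrays, and none of the markers was at 0 in every array. Dgat2 is both a fatty acid gene and a white adipocyte marker here. Of 7 tested brown adipocyte markers 6 had negative differences, with a median of −0.48, and their summed signal was 2282.5 to 4546.1 in apoE-/- and 3193.1 to 8473.8 in wild-type arrays. None of those was at 0 in every array, and their part in the fatty acid gene differences was not tested. With the mean white adipocyte marker value as a covariate, the median of the fatty acid genes was −0.21 and 4 of 22 had an unadjusted p under 0.05. With the control level as a block, the median was −0.32 and 2 had one. On the high-level arrays alone the adipocyte markers had a median of 0.77, with 1 of 13 negative, and the fatty acid genes one of −0.15, with 15 of 22 negative. In the same covariate fit Scap was lower by a log2 difference of −0.68 (limma adjusted p = 0.0147).

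**Figure D5:**
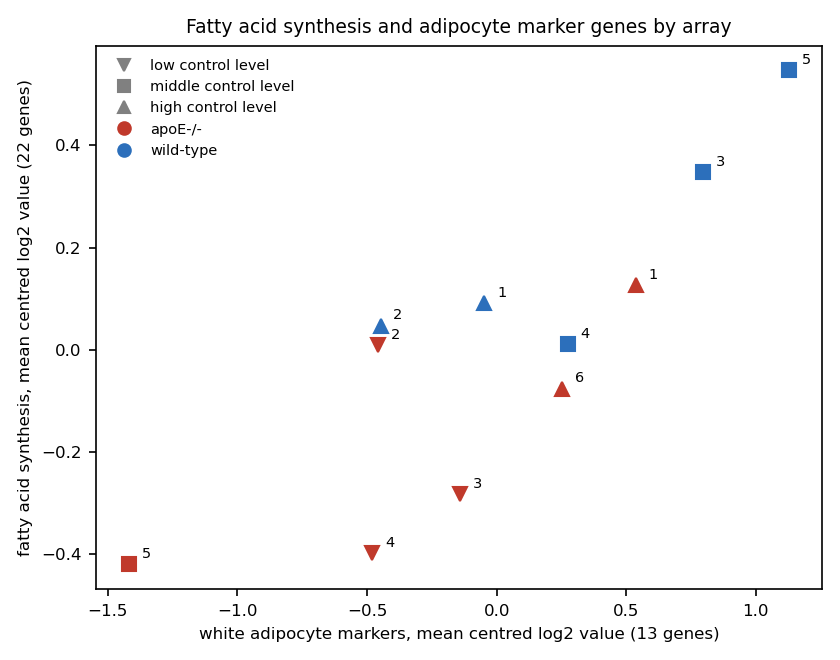
Mean centred log2 value of 22 fatty acid synthesis genes (y axis) against that of 13 white adipocyte markers (x axis) in each of the 11 arrays, numbered by replicate, with colour for genotype and marker shape for control level. The array lowest on both axes is apoE-/- replicate 5 (−0.42 and −1.42), and wild-type replicate 5 is highest on both (0.55 and 1.13).

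Among 20 tested genes of sterol export, uptake control and storage, 1 was called lower and none higher, with a median of −0.10 and 14 negative differences. Over all genes, 0.676% were called lower and 57.0% had negative differences. Stard5, a sterol transfer protein related to Stard4, had signals from 389.1 to 538.8 in apoE-/- and from 558.7 to 659.1 in wild-type arrays, with no overlap (log2 difference −0.47, SE 0.11, limma adjusted p = 0.0380). Its other probe sets gave −0.49 and −0.53. The difference was negative in all 27 alternatives, and the call was lost in 14, also with the control level as a block (−0.49, adjusted p = 0.172) and with the white adipocyte covariate (−0.44, adjusted p = 0.0987). It was lost without apoE-/- replicate 2, 3, 4 or 5 or any single wild-type array, at differences of −0.50 to −0.45 and adjusted p from 0.0523 to 0.106. The oxysterol-binding protein Osbp differed by −0.44 (adjusted p = 0.0641) and Npc2, the lysosomal cholesterol carrier, by −0.32 (0.0810). Next by p came Abca1 and Mylip, both in the other direction, at 0.53 (limma adjusted p = 0.127) and 0.35 (0.143). With the white adipocyte covariate, 1 of the 20 genes was called higher and none lower.

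Of the other cell type markers, 3 of 5 for plasma cells, 1 of 8 for fibroblasts (Postn) and 1 of 10 for satellite glia (Apod) were called higher. None was called for noradrenergic neurons (13 tested), myelinating Schwann cells (5), brown adipocytes (7), endothelium (10), smooth muscle (7) or adrenal steroid-making cells (5) in the limma fit, with 4, 0, 3, 3, 1 and 0 of them at an unadjusted p under 0.05. Over all genes, 20.3% had such a p. Summed Schwann cell marker signals ran from 13092.4 to 33345.3 in apoE-/- and from 13929.9 to 21533 in wild-type arrays. Their part in the members' differences was not tested.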

How the data were processed

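Per the labels, 11 arrays measured total RNA of laser-captured sympathetic ganglia. The authors deposited linear intensity signals and used GCOS 1.4, per the submitters' processing notes. Which algorithm gave the signals is not stated there. Every array had a mean near 500.2 after trimming 2% at each end, which points to scaling before deposit. The number of arrays limits the precision.

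Values of log2(signal + 16) were quantile normalised. A probe set stayed in when at least 5 arrays exceeded the 40th percentile of all values, and the one with the highest mean, among those of 1 gene only, stood for its gene. Tests used limma 3.58.1 (R 4.3.3) with an intensity trend, two-sided, and p-values were adjusted by Benjamini-Hochberg over 8433 genes, with a threshold of 0.05. The fit was tested on simulated data. All members are named. Per-array values are given for members called, the 6 of smallest p, and Srebf1, Srebf2, Insig2, Hmgcs1, Sqle and Stard4, and in each other pathway list the 3 genes of smallest p and any called are named. Members, lists and rules were chosen with earlier results of these data known. Figures were drawn with matplotlib 3.10.9.

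Alternatives covered scaling, pseudocounts of 1 and 64, filters, the probe set rule, variance options, array weights, blocks on replicate number and control level, leaving out the low-level arrays or each array in turn, and an adipocyte covariate. The fit on the high control level alone, and the alternatives for the other lists and for Lbr, Fntb and Stard5, were chosen after seeing the data. Levels are not compared between probe sets.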

Additional observations from a re-analysis of the deposited data

Results flagged for a closer look

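Within each group, the lowest or highest array was compared with its nearest neighbour over 56 gene and group combinations, and 4 stood apart by Dixon's criterion, which chance meets in about 1 group in 20. The Sqle log2 value of 10.98 in apoE-/- replicate 1 was far below the next of that group at 11.60. The Srebf1 value of 10.96 in the same array was far above the next, at 10.40. The Cyp51 value of 10.33 in wild-type replicate 1 was far above the next wild-type array at 10.02. The Apoe value of 4.64 in apoE-/- replicate 3 was far below the next at 7.09.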

How the results depend on the processing

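Apoe kept its direction and call in all 27 alternatives, and the 24 members kept direction and call status in 592 of 648 comparisons. For members not called, this means the same sign and still no call. Scap, the one called member, kept its call in 17 of 27. The count of called genes was 163 as reported, 668 with array weights, 45 with the control level as a block, 24 without the low-level arrays, 2 on the high level alone and 75 to 267 with 1 array left out. The count of called members was 1, became 2 with array weights, was 0 with the control level as a block, without the low-level arrays and on the high level alone, and ran from 0 to 2 with 1 array left out. Same-numbered arrays did not vary together (correlations of 0.15, −0.18, −0.03, −0.00032 and −0.18 for numbers 1 to 5, and 0 of 5 apoE-/- arrays correlated best with their own number). With the replicate block, 185 genes and 0 members were called, Scap was −0.55 (limma adjusted p = 0.0573) and Ebp turned to −0.011. Calls changed for Scap and Msmo1 alone among the members. Mvd, which kept its sign, moved from −0.42 to −0.14 without the low-level arrays, and Srebf1 from −0.25 to −0.014 on the high level alone. Turns of sign in uncalled members follow, and the cause was not tested. With the control level as a block, Dhcr7 was 0.054, Idi1 −0.21, Insig2 −0.046, Mvk 0.096, Sc5d −0.055 and Sqle −0.070. Without the low-level arrays, Hsd17b7 was −0.013, Idi1 −0.20, Insig2 −0.053, Mvk 0.017, Sc5d −0.15 and Sqle −0.092. On the high level alone, Scap was −0.80 (adjusted p = 0.355), Cyp51 −0.018, Dhcr7 0.11, Ebp −0.021, Hsd17b7 −0.20, Idi1 −0.34, Mvk 0.038, Pmvk 0.16, Sc5d −0.13 and Sqle −0.32, and the median of the members was −0.15. With array weights, Fdft1 was 0.010 and Hmgcs1 0.036, and with the adipocyte covariate Idi1 was −0.016 and Sqle −0.097. With 1 array left out, Dhcr7 ran from −0.25 to 0.034, Ebp from −0.011 to 0.061, Fdft1 from −0.062 to 0.010, Hmgcs1 from −0.092 to 0.024, Idi1 from −0.060 to 0.12, Insig2 from −0.045 to 0.041 and Sqle from −0.021 to 0.14. The 5 member probe sets below the filter and the small groups limit what differences could be called.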
